A study of Mus musculus with 6 samples.

Results

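Laminins and their cell surface receptors were followed at the RNA level in 3 immortalized mouse embryonic fibroblast lines that lack different sets of circadian clock repressors. All genes whose mouse symbol names a laminin alpha, beta or gamma chain or an integrin alpha or beta subunit were taken, without regard to their level. They were 37 of the 27179 genes counted, 11 for laminin chains and 26 for integrin subunits (18 alpha and 8 beta). Cry/Per_KO cells lack Cry1, Cry2, Per1 and Per2. Cry/Per/Nr1d_KO cells are 1 clone made from Cry/Per_KO cells with a lentiviral CRISPR vector (LentiCRISPRv2) aimed at Nr1d1 and Nr1d2, and so lack all 6 genes. Per/Nr1d_KO cells lack Per1, Per2, Nr1d1 and Nr1d2, keep both Cry genes, and were established separately. All 3 lines have a C57BL/6 background and lack Per1 and Per2, and there is no line with intact clock genes. Cells grew in DMEM with fetal bovine serum to near confluence, without a treatment or time course. The study compared the lines to ask which RNAs change with NR1D (Cry/Per_KO against Cry/Per/Nr1d_KO) and with CRY (Per/Nr1d_KO against Cry/Per/Nr1d_KO). A line carries everything else that sets it apart besides its genotype, and line and genotype cannot be told apart here.

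Poly-A RNA from 2 RNA preparations of each line was sequenced to 53764390 to 85927236 counts per library. The p-values therefore measure the spread between preparations of 1 culture line, not between independently made lines. Within each line the log2 CPM values of the 2 libraries correlated across genes, with 0.998 as the lowest r. The genotype labels and the names under which the counts were deposited disagree for 2 of the lines. They name Cry/Per_KO and Cry/Per/Nr1d_KO the other way round. Groups follow the labels here, and the libraries concerned are called labelled Cry/Per_KO and labelled Cry/Per/Nr1d_KO. Transcripts of all the targeted clock genes (Nr1d1, Nr1d2, Cry1, Cry2, Per1, Per2) had at least 1001 normalized counts in every library, so their presence does not tell the lines apart. The Cry1 level goes against the labels. Cry1, which NR1D proteins are known to repress, had 5401 and 5442 normalized counts in labelled Cry/Per_KO cells, the line that keeps Nr1d1 and Nr1d2 by its label, and 1696 and 1730 in labelled Cry/Per/Nr1d_KO cells. The other 5 targeted genes were likewise higher in both labelled Cry/Per_KO libraries, among them Nr1d1 with 9473 and 9187 beside 3153 and 3159. The deposited names put the higher Cry1 level in the line without Nr1d1 and Nr1d2. Every direction below that involves these 2 lines therefore holds for the labelled libraries and not for the genotypes. If the deposited names are right, every difference between the first 2 lines turns its sign, and the comparisons of Per/Nr1d_KO cells with these lines trade places.

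Laminins are secreted trimers of 1 alpha, 1 beta and 1 gamma chain that polymerize into the sheet of the basement membrane. The alpha chain carries the globular end that cells bind. Integrins are dimers of 1 alpha and 1 beta subunit that span the membrane, hold matrix proteins outside and connect to talin and actin inside. The Itgb1 product pairs with most alpha subunits, the alpha subunit largely sets the ligand, and fibroblasts use these receptors to hold on to laminin, collagen and fibronectin.

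Sequence upstream of the start is shown for Lama5, Itga11 and Itgb6, a laminin alpha chain, a collagen receptor and a TGF-beta activating subunit. The RNA of the first 2 separated all lines and that of Itgb6 set Per/Nr1d_KO cells apart. They were chosen after their values were seen. The stretches come from the RefSeq promoter table of GRCm38.p6, 5′ to 3′ on the strand of the gene, and end before the first base of any RefSeq or GENCODE vM21 model of the gene. They cover chr2:180225905-180226109 on the minus strand for Lama5, chr9:62677605-62677825 on the plus strand for Itga11 and chr2:60722644-60722853 on the minus strand for Itgb6. Capitals mark the GC box, searched as GGGCGG on both strands.
Lama5: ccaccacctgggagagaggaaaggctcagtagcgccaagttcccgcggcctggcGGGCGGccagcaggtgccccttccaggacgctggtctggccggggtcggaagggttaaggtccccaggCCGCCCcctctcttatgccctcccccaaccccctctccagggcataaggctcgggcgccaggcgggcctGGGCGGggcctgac
Itga11: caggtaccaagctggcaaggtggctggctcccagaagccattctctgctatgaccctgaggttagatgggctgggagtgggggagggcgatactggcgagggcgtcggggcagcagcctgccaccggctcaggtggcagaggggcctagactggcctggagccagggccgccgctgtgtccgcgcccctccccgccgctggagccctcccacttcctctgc
Itgb6: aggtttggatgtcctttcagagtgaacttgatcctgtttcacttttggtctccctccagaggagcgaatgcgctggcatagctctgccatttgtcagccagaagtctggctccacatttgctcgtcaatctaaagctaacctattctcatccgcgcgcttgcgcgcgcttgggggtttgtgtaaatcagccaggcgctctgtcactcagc
The Lama5 stretch held 3 GC boxes and was 71.7% G or C, and the Itga11 and Itgb6 stretches held none at 69.2% and 52.4%. The table had windows for 23 of the 37 members, 26 windows in all, and the 250 bases before each start were searched. A GC box was found in 8 member genes (Lama5, Lamb1, Itga3, Itga4, Itga5, Itgam, Itgb1 and Itgb5) and in 34.6% of the member windows, beside 32.7% of all 32851 windows. The E-box CACGTG, the letters that CLOCK and BMAL1 are known to bind, was in no member window and in 6.02% of all windows. The half-site AGGTCA, to which NR1D and ROR receptors are known to bind, was likewise in no member window and in 14% of all windows. The AP-1 motif TGANTCA was in 1 member, Itgax, and in 6.75% of all windows. These matches describe letters in short windows and not binding.

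Of the 37 members, 25 reached a mean of 100 normalized counts over the 6 libraries and were tested, and 12 did not. Differences were called at an adjusted p under 0.05 and a change of more than 75%. In labelled Cry/Per_KO against labelled Cry/Per/Nr1d_KO cells, 11 members were called (3 higher, 8 lower), where 16.8% of all 11934 genes tested were called (7.90% higher, 8.87% lower). In Per/Nr1d_KO against labelled Cry/Per/Nr1d_KO cells, 14 were called (8 higher, 6 lower), beside a background of 20.6% (11.2% and 9.40%). The balance of this comparison depended on the expression limit, with 9 higher and 12 lower without a limit and 9 higher and 11 lower at a mean of at least 10. In Per/Nr1d_KO against labelled Cry/Per_KO cells, 17 were called (11 higher, 6 lower), beside 29.0% (14.9% and 14.1%). The members called were 44.0%, 56.0% and 68.0% of those tested. The median log2 fold change of the tested members was -0.25, 0.31 and 0.57 in the 3 comparisons, and that of all genes was 0.00, 0.00 and 0.02. Each pair of these comparisons shares a line, so the counts are not independent of each other. Among the 25 tested members, 9 fell below 100 normalized counts in at least 1 line and passed the limit through a line where they were high, which favours calls among them. They were Lama1, Lama2, Lama4, Lamb3, Itga11, Itga8, Itgb3, Itgb6 and Itgb7. The other 16 had a mean of at least 100 in every line, and 4, 7 and 8 of them were called in the 3 comparisons (25%, 43.8% and 50%), beside 11.9%, 15% and 23.6% of the 10876 genes with such a mean. This narrower choice, made after seeing the data, leaves out genes that are low in a line, and no excess is read from either count.

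The tested laminin alpha chains differed between lines. All 4 were called in both comparisons of Per/Nr1d_KO cells, beside 20.6% and 29.0% of all genes. Between labelled Cry/Per_KO and labelled Cry/Per/Nr1d_KO cells 3 of them were called, beside 16.8% of all genes. Lama1, Lama2 and Lama4 are among the 9 members that passed the expression limit through a line where they were high. This favours calls among them, and no excess is read from these counts. Each line had its own mixture of alpha chain RNAs, while the main beta and gamma chain RNAs stayed within the 75% limit.

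Lama1 (Entrez 16772, chr17:67697127-67822645), the alpha chain of the early embryonic basement membrane, had 4289 and 4254 normalized counts in Per/Nr1d_KO cells. It had 82.4 and 75.8 in the labelled Cry/Per/Nr1d_KO libraries and 0 and 0.975 in the labelled Cry/Per_KO libraries, so no 2 lines overlapped. Against labelled Cry/Per/Nr1d_KO cells it was 53.7-fold higher in Per/Nr1d_KO cells (log2 fold change 5.75, SE 0.0897, adjusted p = 2.6e-17). The labelled Cry/Per_KO libraries held 1 read in all, which put the ratio of labelled Cry/Per/Nr1d_KO to labelled Cry/Per_KO at 152 with a 95% interval of 26.9 to 6038 for counting error (adjusted p of the fit 1.4e-09). A count of 0 allows up to 3 reads, or 3.39 normalized counts in that library.

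Lama2 (Entrez 16773, chr10:26981285-27617191), the alpha chain of muscle and peripheral nerve basement membranes, ran in another order. It had 2321 and 2403 normalized counts in labelled Cry/Per/Nr1d_KO cells, 559 and 592 in Per/Nr1d_KO cells, and 35 and 49.7 in labelled Cry/Per_KO cells. It was 54.9-fold lower in labelled Cry/Per_KO than in labelled Cry/Per/Nr1d_KO cells (log2 fold change -5.78, SE 0.115, adjusted p = 3.5e-15). It was 4.09-fold lower in Per/Nr1d_KO cells than in labelled Cry/Per/Nr1d_KO cells (log2 fold change -2.03, SE 0.0761, adjusted p = 1.2e-12) and 13.4-fold higher than in labelled Cry/Per_KO cells. In GENCODE vM21 3.86% of its exon bases lie opposite another gene.

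Lama4 (Entrez 16775, chr10:38965515-39110188), the alpha chain of vessel walls and other mesenchymal tissue, nearly lacked reads in Per/Nr1d_KO cells. It had 4908 and 4872 normalized counts in labelled Cry/Per/Nr1d_KO cells, 4484 and 4429 in labelled Cry/Per_KO cells, and 5.06 and 2.36 in Per/Nr1d_KO cells. The Per/Nr1d_KO libraries held 7 Lama4 reads in all. Labelled Cry/Per/Nr1d_KO cells exceeded them 1443-fold (95% counting interval 700 to 3589, adjusted p of the fit 2e-18) and labelled Cry/Per_KO cells 1314-fold (637 to 3268, adjusted p 2e-18). Between the latter 2 lines Lama4 differed by -0.13 on the log2 scale (SE 0.0488, adjusted p = 0.021), well inside the limit.

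Lama5 (Entrez 16776, chr2:180176373-180225904), the alpha chain of most adult epithelial basement membranes, was present in every line at different levels. It had 13458 and 13235 normalized counts in Per/Nr1d_KO cells, 3988 and 3622 in labelled Cry/Per/Nr1d_KO cells, and 619 and 603 in labelled Cry/Per_KO cells. It was 3.5-fold higher in Per/Nr1d_KO than in labelled Cry/Per/Nr1d_KO cells (log2 fold change 1.81, SE 0.0508, adjusted p = 3.2e-14). It was 6.24-fold lower in labelled Cry/Per_KO than in labelled Cry/Per/Nr1d_KO cells (log2 fold change -2.64, SE 0.0615, adjusted p = 2.2e-14). Lama3, the alpha chain of skin anchoring complexes, stayed low at 25.7 to 89.2 normalized counts over the 6 libraries.

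**Figure D1:**
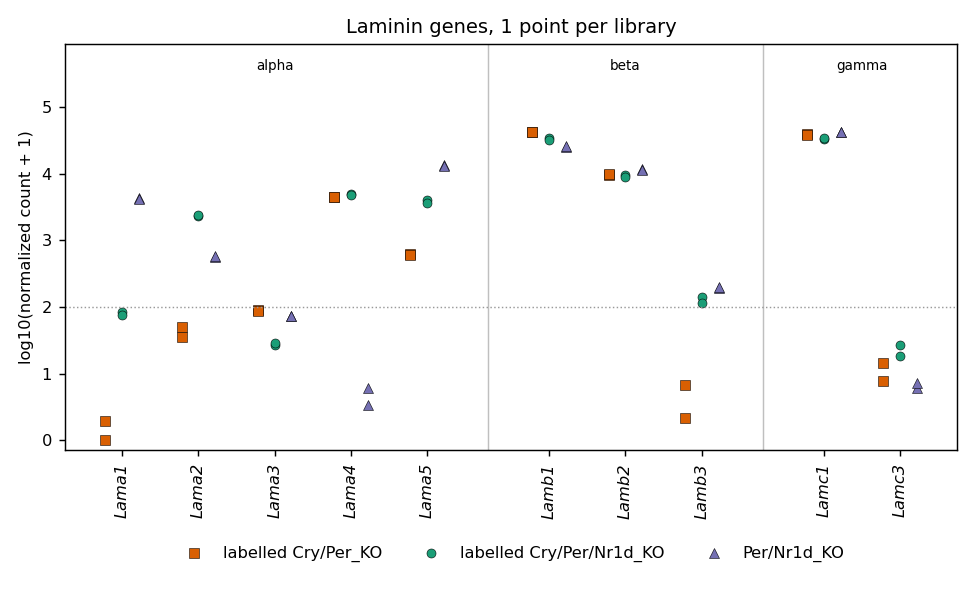
Normalized counts of 10 laminin genes on the scale log10(normalized count + 1), 1 point per library, with colour and shape giving the line and the dotted line at 100 normalized counts. Lama1, Lama2 and Lama5 separate all 3 lines, Lama4 is near 0 in Per/Nr1d_KO cells alone (5.06 and 2.36), and Lamb1, Lamb2 and Lamc1 lie close together in all 6 libraries.

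The beta and gamma chains that most laminin trimers use were high in all lines. Lamb1 had 34330 and 32812 normalized counts in labelled Cry/Per/Nr1d_KO cells, 41870 and 42399 in labelled Cry/Per_KO cells and 25486 and 25798 in Per/Nr1d_KO cells. Lamb2, the beta chain of the neuromuscular junction and the kidney filter, had 9777 and 9016, 9746 and 10024, and 11638 and 11265 in the same order. Lamc1, the gamma chain of most trimers, had 33331 and 34083, 39097 and 38798, and 43077 and 42454. None of these 3 was called in any comparison. The largest of their differences was that of Lamb1 between Per/Nr1d_KO and labelled Cry/Per_KO cells, -0.72 on the log2 scale (SE 0.0418, adjusted p = 2.2e-10), which passed the p threshold and missed the limit on the fold.

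Lamb3, the beta chain that joins Lama3 in the laminin of skin, nearly lacked reads in 1 line. It had 141 and 116 normalized counts in labelled Cry/Per/Nr1d_KO cells, 192 and 199 in Per/Nr1d_KO cells, and 1.13 and 5.85 in labelled Cry/Per_KO cells. With 7 reads in labelled Cry/Per_KO cells, its ratio there was 35.5-fold lower than in labelled Cry/Per/Nr1d_KO cells (95% counting interval 17 to 89, adjusted p of the fit 3.2e-09). The fitted log2 fold change was -5.10, and it was -4.44 or -6.68 when the first or the second labelled Cry/Per_KO library was left out. Lamc3 had 5.06 to 25.6 normalized counts over the 6 libraries.

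Levels of different genes were compared after division by the length of their merged exons. Among the alpha chains, Lama4 made up 85.2% and 85.1% of the summed normalized counts per kb in the labelled Cry/Per_KO libraries, with Lama5 at 12.5% and 12.3%. In the labelled Cry/Per/Nr1d_KO libraries Lama4 took 44.7% and 45.9%, Lama5 38.5% and 36.2%, and Lama2 15.6% and 16.7%. In the Per/Nr1d_KO libraries Lama5 took 70.9% and 70.7% and Lama1 26.6% and 26.7%, with Lama4 at 0.0252% and 0.0119%. Lamc1 made up between 95.2% and 98% of the gamma chain total in every library, and Lamb1 between 57% and 72.5% of the beta chain total. The summed alpha chain level was 436 and 431 per kb in labelled Cry/Per_KO cells, 910 and 879 in labelled Cry/Per/Nr1d_KO cells and 1666 and 1645 in Per/Nr1d_KO cells, while the beta chain sum was 4484 to 5924 and the gamma chain sum 4117 to 5325. In every library the alpha chain sum was the lowest of the 3. With the length of the longest transcript the Lama4 share in labelled Cry/Per/Nr1d_KO cells was 57.8% and the Lama5 share 23.9%, and the leading alpha chain of each line was still Lama4, Lama4 and Lama5.

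**Figure D2:**
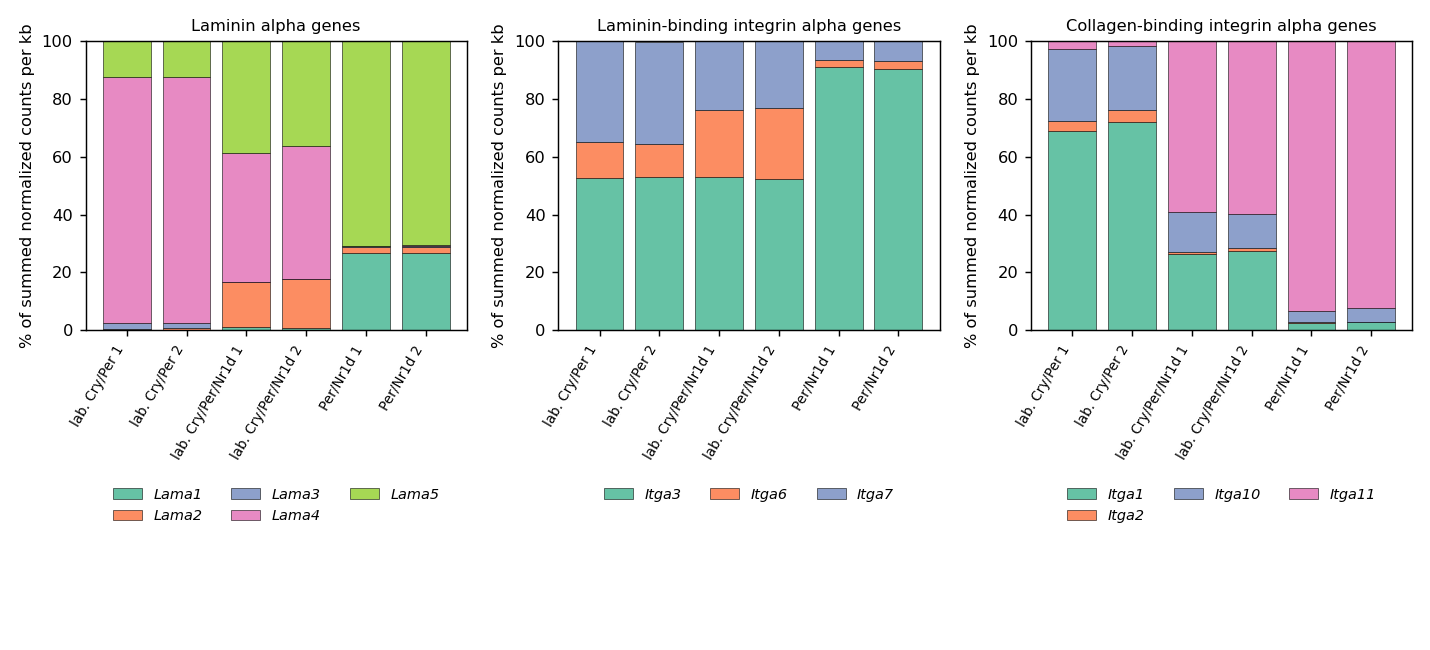
Share of each gene in the summed normalized counts per kb of merged exon, in percent, for the laminin alpha genes, the laminin-binding integrin alpha genes and the collagen-binding integrin alpha genes, 1 bar per library (lab. stands for labelled). Lama4, Itga1 and Itga7 take larger shares in the labelled Cry/Per_KO libraries, and Lama5, Itga3 and Itga11 in the Per/Nr1d_KO libraries, where Itga11 reaches 93.3% and 92.3%.

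The products of Itga3, Itga6 and Itga7 are the integrin alpha subunits grouped here as laminin-binding, and all are partners of the Itgb1 product. Some collagen receptors bind laminin as well and are described below with the collagen-binding subunits. Itga3, Itga6 and Itga7 were all called in both comparisons of Per/Nr1d_KO cells, in opposite directions, beside 20.6% and 29.0% of all genes. Itga3, a main receptor for laminins with the Lama5 chain, had 16529 and 15919 normalized counts in Per/Nr1d_KO cells, 7225 and 7002 in labelled Cry/Per/Nr1d_KO cells and 8446 and 8841 in labelled Cry/Per_KO cells. It was 2.28-fold higher in Per/Nr1d_KO than in labelled Cry/Per/Nr1d_KO cells (log2 fold change 1.19, SE 0.0448, adjusted p = 1.2e-12) and 1.88-fold higher than in labelled Cry/Per_KO cells (adjusted p = 2.4e-11). Itga6, which also pairs with the Itgb4 product in epithelial hemidesmosomes, had 716 and 741 normalized counts in Per/Nr1d_KO cells, 5018 and 5241 in labelled Cry/Per/Nr1d_KO cells and 3112 and 3065 in labelled Cry/Per_KO cells. It was 7.02-fold and 4.23-fold lower in Per/Nr1d_KO cells than in the latter 2 lines (adjusted p = 5.6e-16 and 2e-14). Pseudogenes and other transcripts share 5.31% of its 50-base stretches, the length of the reads.

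Itga7, the laminin receptor of muscle, had 7945 and 8353 normalized counts in labelled Cry/Per_KO cells, 4595 and 4354 in labelled Cry/Per/Nr1d_KO cells and 1632 and 1687 in Per/Nr1d_KO cells. It was 2.69-fold lower in Per/Nr1d_KO than in labelled Cry/Per/Nr1d_KO cells (adjusted p = 8.5e-13) and 4.9-fold lower than in labelled Cry/Per_KO cells (adjusted p = 2e-15). It was 1.82-fold higher in labelled Cry/Per_KO than in labelled Cry/Per/Nr1d_KO cells (log2 fold change 0.86, SE 0.0483, adjusted p = 3.4e-10), a call that is lost when the test is made against the limit itself (edgeR's glmTreat, adjusted p = 0.3). Per kb, Itga3 made up 91.2% and 90.6% of these 3 genes in Per/Nr1d_KO libraries and between 52.3% and 53% in the 4 other libraries. By the longest transcript Itga7 led in labelled Cry/Per_KO cells with 44.8%, and Itga3 had 39.3%. The summed level of the 3 genes per kb was 2345 to 2389 in labelled Cry/Per/Nr1d_KO, 2806 to 2920 in labelled Cry/Per_KO and 3079 to 3176 in Per/Nr1d_KO libraries.

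Read as pairs of ligand and receptor, Per/Nr1d_KO cells had the highest levels of Lama1, Lama5 and Itga3, and the lowest levels of Itga6, Itga7 and Lama4. Labelled Cry/Per_KO cells had the highest Itga7 level and the lowest levels of Lama1, Lama2 and Lama5. Labelled Cry/Per/Nr1d_KO cells had the highest levels of Lama2 and Itga6. These are orders over 3 lines, and no association was tested.

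Among the collagen-binding subunits Itga11 (Entrez 319480, chr9:62677855-62783979), a fibroblast receptor for fibrillar collagen, differed most. It had 5811 and 5473 normalized counts in Per/Nr1d_KO cells, 1145 and 1143 in labelled Cry/Per/Nr1d_KO cells and 18.1 and 9.75 in labelled Cry/Per_KO cells, with no overlap between lines. It was 4.93-fold higher in Per/Nr1d_KO than in labelled Cry/Per/Nr1d_KO cells (log2 fold change 2.30, SE 0.0633, adjusted p = 2.5e-14), and it was 83.3-fold lower in labelled Cry/Per_KO than in labelled Cry/Per/Nr1d_KO cells (log2 fold change -6.38, SE 0.143, adjusted p = 1.4e-14). Between Per/Nr1d_KO and labelled Cry/Per_KO cells the difference was 8.68 on the log2 scale (SE 0.12, adjusted p = 6.8e-18). The median gene of chromosome 9 went the other way in these comparisons, by -0.47, 0.38 and -0.85 on the log2 scale.

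Itga1, a receptor for basement membrane collagen that also binds laminin, was lowest in Per/Nr1d_KO cells. It had 568 and 575 normalized counts in Per/Nr1d_KO cells, 1848 and 1895 in labelled Cry/Per/Nr1d_KO cells and 1738 and 1613 in labelled Cry/Per_KO cells. It was 3.27-fold and 2.93-fold lower in Per/Nr1d_KO cells than in these lines (adjusted p = 2.6e-12 and 7.5e-12). Itga2, the collagen receptor of platelets and epithelia, had 17.7 to 35.1 normalized counts over all libraries. Per kb, Itga11 made up 93.3% and 92.3% of the 4 collagen-binding genes in Per/Nr1d_KO libraries, 59.3% and 59.7% in labelled Cry/Per/Nr1d_KO libraries, and 2.6% and 1.58% in labelled Cry/Per_KO libraries, where Itga1 took 69.1% and 72.2%. The summed level of these genes per kb was 1156 to 1214, 373 to 377 and 120 to 135 in the same order of lines.

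Itga10, a cartilage collagen receptor, was not called, and its values sat at the limit. It had 265 and 232 normalized counts in labelled Cry/Per/Nr1d_KO cells, 175 and 138 in labelled Cry/Per_KO cells and 252 and 287 in Per/Nr1d_KO cells. The log2 fold change between Per/Nr1d_KO and labelled Cry/Per_KO cells was 0.81 (SE 0.139, adjusted p = 6.7e-05), just under the limit. It was called at 0.98 without the first labelled Cry/Per_KO library and at 0.89 without the first Per/Nr1d_KO library, and without the first labelled Cry/Per_KO library it was also called against labelled Cry/Per/Nr1d_KO cells at -0.86. Between Per/Nr1d_KO and labelled Cry/Per_KO cells it was also called at 0.82 without an expression filter and with a mean of at least 10. The median of chromosome 3, where the gene lies, differed by 0.87 and -0.64 in these comparisons, and less this median the values of Itga10 were -0.06 and -0.04. The gene is uncertain because 33.5% of its exon bases lie in an overlapping gene model on the same strand.

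**Figure D3:**
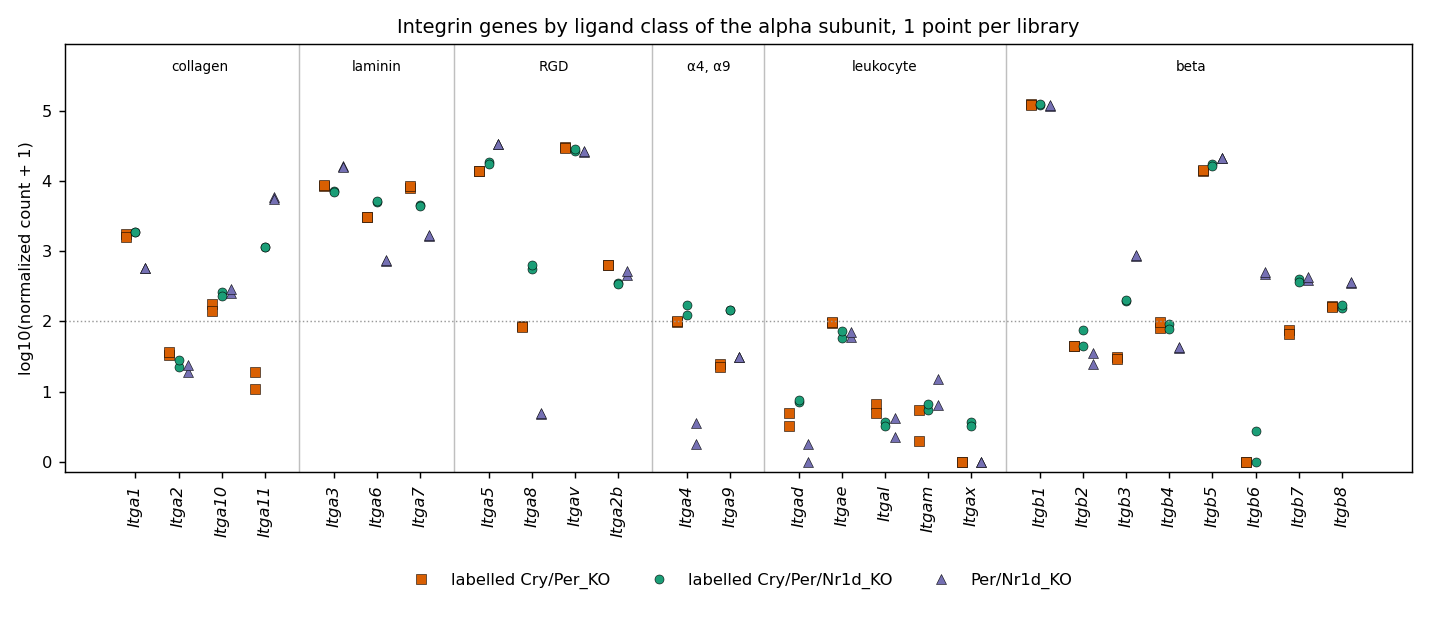
Normalized counts of the 26 integrin genes on the scale log10(normalized count + 1), 1 point per library, ordered by the ligand class of the alpha subunit and with the beta subunits at the right (RGD is the peptide motif bound by that class, and the dotted line marks 100 normalized counts). Itga11, Itgb3 and Itgb6 are highest in the Per/Nr1d_KO libraries, Itga8 and Itga4 are near 0 there, and Itgb1 is level at 116730 to 126401 in all 6.

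Of the 4 alpha subunits grouped by the RGD motif of fibronectin, vitronectin and latent TGF-beta, Itga5 and Itgav were abundant and Itga8 and Itga2b were not. Itga5, whose product with that of Itgb1 is the main fibronectin receptor, had 34080 and 33863 normalized counts in Per/Nr1d_KO cells, 18560 and 17415 in labelled Cry/Per/Nr1d_KO cells and 13616 and 13927 in labelled Cry/Per_KO cells. It was 1.89-fold higher in Per/Nr1d_KO than in labelled Cry/Per/Nr1d_KO cells (log2 fold change 0.92, SE 0.0434, adjusted p = 2.2e-11) and 2.47-fold higher than in labelled Cry/Per_KO cells (adjusted p = 2.5e-13). Fn1, which encodes its ligand fibronectin, was also called higher in Per/Nr1d_KO cells, by 0.90 and 0.87 on the log2 scale (adjusted p = 4.6e-11 and 5.6e-11).

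Itgav, whose product pairs with those of Itgb1, Itgb3, Itgb5, Itgb6 and Itgb8, was close to level. It had 27028 and 28304 normalized counts in labelled Cry/Per/Nr1d_KO cells, 29933 and 29607 in labelled Cry/Per_KO cells and 26077 and 26400 in Per/Nr1d_KO cells, and was called in no comparison. Itga8, which binds nephronectin, had 562 and 637 normalized counts in labelled Cry/Per/Nr1d_KO cells, 85.8 and 82.9 in labelled Cry/Per_KO cells and 3.79 and 3.93 in Per/Nr1d_KO cells. It was 7.08-fold lower in labelled Cry/Per_KO than in labelled Cry/Per/Nr1d_KO cells (log2 fold change -2.82, SE 0.125, adjusted p = 2.6e-11). The Per/Nr1d_KO libraries held 8 reads, a ratio of 154 to labelled Cry/Per/Nr1d_KO cells (95% counting interval 77.7 to 356) and of 21.7 to labelled Cry/Per_KO cells (10.8 to 51.2).

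Itga2b, the fibrinogen receptor subunit of platelets, had 624 and 634 normalized counts in labelled Cry/Per_KO cells, 348 and 334 in labelled Cry/Per/Nr1d_KO cells and 461 and 518 in Per/Nr1d_KO cells. It was called 1.84-fold higher in labelled Cry/Per_KO than in labelled Cry/Per/Nr1d_KO cells (log2 fold change 0.88, SE 0.0922, adjusted p = 4.3e-07), and this call was lost in the test against the limit (glmTreat, adjusted p = 0.55). Of the platelet markers, Gp9 and Pf4 had at most 1.95 and 10.1 normalized counts in any library. Gp1ba, a platelet adhesion receptor, had 72.3 and 54.6 in labelled Cry/Per_KO cells, where Itga2b was highest, 31 and 46.8 in labelled Cry/Per/Nr1d_KO cells and 21.5 and 23.6 in Per/Nr1d_KO cells. Ppbp, which encodes a platelet chemokine, had 24030 and 23708 in Per/Nr1d_KO cells, where Itga2b was not highest. The part of these markers in the Itga2b level was not tested.

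Per kb, Itga5, Itgav and Itga3 led the 18 alpha genes in every library when merged exons gave the length. Itga5 made up 50% and 50.2% in Per/Nr1d_KO libraries, 40.8% and 38.9% in labelled Cry/Per/Nr1d_KO libraries and 31.9% and 32.2% in labelled Cry/Per_KO libraries. The Itgav share was 17.5% to 18% in Per/Nr1d_KO libraries and 27.3% to 32.2% in the others. In labelled Cry/Per_KO libraries the Itga5 and Itgav shares were within 1 percentage point of each other (31.9% and 32.2% beside 32.2% and 31.4%), and their order differed between the 2 libraries and turned toward Itgav with the longest transcript (34.3% beside 25.4%).

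Among the beta subunits Itgb1 and Itgb5 were called in no comparison, and Itgb3, Itgb6, Itgb7 and Itgb8 were each called in some. Itgb3, Itgb6 and Itgb7 passed the expression limit through a line where they were high, which favours calls among them. Itgb1 had 118692 and 124238 normalized counts in labelled Cry/Per/Nr1d_KO cells, 126401 and 122411 in labelled Cry/Per_KO cells and 116730 and 119097 in Per/Nr1d_KO cells. Its log2 fold changes were 0.03, -0.04 and -0.08 with an SE of 0.0443 each, and the adjusted p of the 3 comparisons ran from 0.12 to 0.49. Itgb5, a vitronectin receptor subunit, had 17461 and 16191, 13898 and 14336, and 20862 and 21073 in the same order and was called in no comparison. Per kb, Itgb1 made up between 82% and 88.6% of the beta total and Itgb5 between 11.2% and 16.8%.

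Itgb3, which joins the Itgav product as a vitronectin receptor, had 864 and 875 normalized counts in Per/Nr1d_KO cells, 193 and 200 in labelled Cry/Per/Nr1d_KO cells and 30.5 and 28.3 in labelled Cry/Per_KO cells. It was 4.43-fold higher in Per/Nr1d_KO and 6.67-fold lower in labelled Cry/Per_KO cells, each relative to labelled Cry/Per/Nr1d_KO cells (log2 fold changes 2.15 and -2.74, SE 0.0939 and 0.163, adjusted p = 7.9e-12 and 7.1e-10). Itgb6 (Entrez 16420, chr2:60598292-60722603), an epithelial subunit that with the Itgav product activates latent TGF-beta, had 468 and 510 normalized counts in Per/Nr1d_KO cells. It had 1.77 and 0 in labelled Cry/Per/Nr1d_KO cells and 0 in both labelled Cry/Per_KO libraries. Against the 2 reads of labelled Cry/Per/Nr1d_KO cells the ratio was 500 (95% counting interval 138 to 4133, adjusted p of the fit 1.7e-12), and against labelled Cry/Per_KO cells it was at least 155-fold higher, taking 3 reads per library as the floor (adjusted p of the fit 1.4e-12).

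Of the 8 epithelial markers, 5 were under 10 normalized counts in every library. Their summed level was 138 to 143 in Per/Nr1d_KO, 176 to 219 in labelled Cry/Per/Nr1d_KO and 26.3 to 41.8 in labelled Cry/Per_KO libraries, with Krt5 and Krt14 at 2.36 or less throughout. Cdh1 had 99.9 and 110 normalized counts in Per/Nr1d_KO cells and 7.98 to 27.9 in the other lines. Esrp1, an epithelial splicing factor, went the other way, with 140 and 154 in labelled Cry/Per/Nr1d_KO cells, 12.4 and 8.78 in labelled Cry/Per_KO cells and 0 and 0.785 in Per/Nr1d_KO cells. Itgb4, the hemidesmosome subunit, was not raised beside Itgb6, with 40.5 and 42.4 normalized counts in Per/Nr1d_KO cells and 76.9 to 98.5 in the other lines. The part of other cells in the Itgb6 level was not tested, and in bulk RNA fewer cells of a type and less RNA per cell cannot be told apart.

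Itgb7, a subunit that lymphocytes use to bind gut vessels and epithelium, had 397 and 362 normalized counts in labelled Cry/Per/Nr1d_KO cells, 386 and 425 in Per/Nr1d_KO cells and 73.4 and 64.4 in labelled Cry/Per_KO cells. It was 5.54-fold lower in labelled Cry/Per_KO than in labelled Cry/Per/Nr1d_KO cells (log2 fold change -2.47, SE 0.137, adjusted p = 3.1e-10) and 5.93-fold higher in Per/Nr1d_KO than in labelled Cry/Per_KO cells (adjusted p = 6.2e-11). Its known alpha partners were low, with Itgae at 56.7 to 95.6 and Itga4 at 0.785 to 171 normalized counts. Itgb8, another activator of latent TGF-beta with the Itgav product, had 355 and 357 normalized counts in Per/Nr1d_KO cells, 156 and 172 in labelled Cry/Per/Nr1d_KO cells and 166 and 159 in labelled Cry/Per_KO cells. It was 2.18-fold and 2.19-fold higher in Per/Nr1d_KO cells than in these lines (adjusted p = 2.1e-07 and 1.5e-07).

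Taking the called members by their order over the lines, 4 genes (Lama1, Lama5, Itga11 and Itgb3) were highest in Per/Nr1d_KO, intermediate in labelled Cry/Per/Nr1d_KO and lowest in labelled Cry/Per_KO cells with all 3 differences called. Lama2, Itga7 and Itga8 were also called in all 3 comparisons, each in an order of its own. Of these genes, Lama1, Lama2, Itga11, Itga8 and Itgb3 passed the expression limit through a line where they were high, which favours calls among them. No share of all genes with such orders is given here, and no excess is read from them. The tested members called in no comparison were Lamb1, Lamb2, Lamc1, Itga10, Itgav, Itgb1 and Itgb5.

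**Figure D4:**
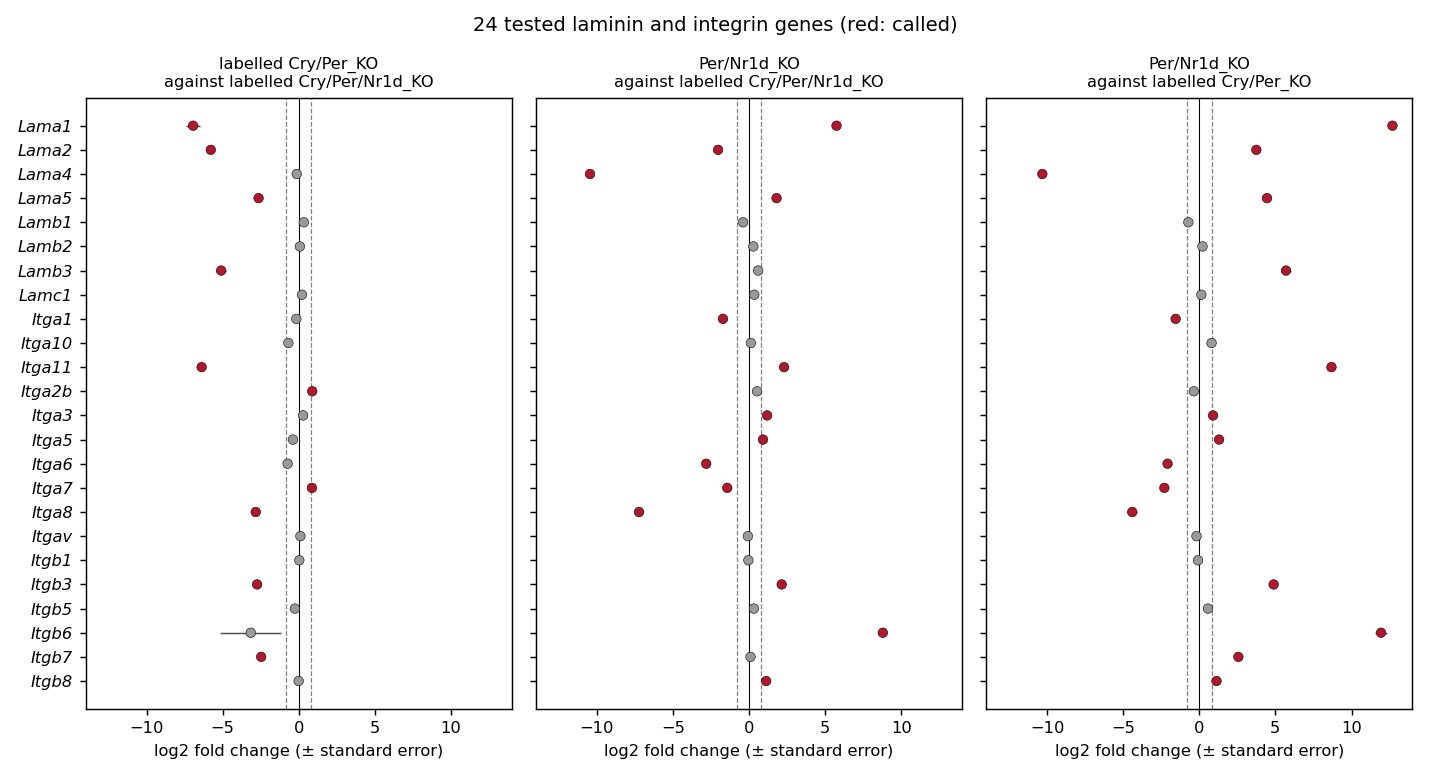
Log2 fold change of 24 tested laminin and integrin genes in each comparison, with bars for the standard error (often smaller than the point), dashed lines at the limit of 0.81 either way and red points for called genes. Lamb1, Lamb2, Lamc1, Itgav, Itgb1 and Itgb5 stay between the dashed lines in all 3 panels, and the points of Itgb6 and Lama1 that rest on 0 or 1 read in labelled Cry/Per_KO cells depend on the fit's prior count.

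The 12 members under the expression limit were read from counts and from an alternative fit that kept genes with a mean of at least 10. Leukocyte alpha subunits were near the floor, with Itgad, Itgal, Itgam and Itgax at 0 to 13.9 normalized counts, and most Itgam exon bases (68.7%) lie in another gene model. Itgb2, their partner, had 23.6 to 73.6, while Ptprc, the pan-leukocyte marker, had at most 3.93 and Cd3e was 0 in every library. Of the other leukocyte markers, Cd68 had 109 to 276 normalized counts, Csf1r 43.9 to 74.5 and Lyz2 8.85 to 68.9, and their part in the Itgb2 level was not tested. In the alternative fit 8 of the 12 were tested, and 3, 6 and 2 of them were called in the 3 comparisons. Of all 14770 genes in it, most with a mean of at least 100, 22.4%, 26.5% and 33.8% were called. No share was taken for genes as low as these 8, so no excess is read from this fit. Lama3 was the member called higher there, 3.25-fold in labelled Cry/Per_KO and 2.76-fold in Per/Nr1d_KO against labelled Cry/Per/Nr1d_KO cells (adjusted p = 2e-06 and 1.3e-05), and the other calls, of Lamc3, Itga4, Itga9, Itgb2 and Itgb4, were lower. Itga9, a receptor for tenascin and other matrix proteins, had 146 and 142 normalized counts in labelled Cry/Per/Nr1d_KO cells and 21.5 to 30.3 in the other lines, 6.41-fold lower in labelled Cry/Per_KO and 4.76-fold lower in Per/Nr1d_KO cells (adjusted p = 3.1e-09 and 8.7e-09). Itga4, whose product with that of Itgb1 binds fibronectin and VCAM1, had 121 and 171 normalized counts in labelled Cry/Per/Nr1d_KO cells, 98.2 and 99.5 in labelled Cry/Per_KO cells, and 3 reads in all in Per/Nr1d_KO cells, a ratio of 98.5 (95% counting interval 33.4 to 481) to labelled Cry/Per/Nr1d_KO cells. Both are low, and 8.04% of the Itga4 exon bases lie opposite another gene.

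The machinery inside the cell that integrins bind was also followed. Of 28 tested genes of the cytoplasmic adhesion complex, such as talins, vinculin and paxillin, 2, 4 and 5 were called in the 3 comparisons (7.14%, 14.3% and 17.9%), each below the share of all genes. Called genes included Parvb, which links integrin-linked kinase to actin, lower in labelled Cry/Per_KO than in labelled Cry/Per/Nr1d_KO cells (5265 and 1320 mean normalized counts in the latter and the former, adjusted p = 5.9e-14), and Tns1, a tensin, at 1734, 607 and 6803 mean normalized counts in labelled Cry/Per/Nr1d_KO, labelled Cry/Per_KO and Per/Nr1d_KO cells. Of 27 tested integrin ligands other than laminins, 12, 22 and 22 were called (44.4%, 81.5% and 81.5%), beside 16.8%, 20.6% and 29.0% of all genes. In the first comparison 3 were higher and 9 lower, in the second 15 and 7, and in the last 17 and 5. The difference between these lists was not tested. The lists were chosen with earlier results of these data known. Some of their genes, Npnt and Edil3 among them, passed the expression limit through a line where they were high. Both can favour calls, and no excess is read from these counts.

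Across the 76 tested genes of all adhesion lists, 16, 34 and 36 were called, or 21.1%, 44.7% and 47.4%, beside 16.8%, 20.6% and 29.0% of all genes. The choice of the lists and the expression limit bear on these shares too, and no excess is read from them. In labelled Cry/Per_KO against labelled Cry/Per/Nr1d_KO cells the largest were Npnt (log2 fold change -5.64, SE 0.165, adjusted p = 2.8e-13), the nephronectin ligand of the Itga8 product, Postn (-3.42) and Tgfbi (-3.39), both matrix proteins that bind integrins. In Per/Nr1d_KO against labelled Cry/Per/Nr1d_KO cells they were Col3a1 (5.72, SE 0.0524, adjusted p = 2.1e-19), a fibrillar collagen, Col18a1 (4.90), a basement membrane collagen, and Edil3 (-4.75), a ligand of Itgav receptors. Col3a1 had 42703 and 43594 normalized counts in Per/Nr1d_KO cells, 835 and 804 in labelled Cry/Per/Nr1d_KO cells and 294 in both labelled Cry/Per_KO libraries, the same order as its receptor subunit Itga11. Col1a1 (means 619779, 217955 and 131852) and Col5a1 (69304, 37263 and 25835) ran in this order too. Col1a2, another fibrillar collagen, was higher in labelled Cry/Per_KO (mean 207031) than in labelled Cry/Per/Nr1d_KO cells (161580), unlike Itga11. Between labelled Cry/Per_KO and labelled Cry/Per/Nr1d_KO cells, Col1a1, Col5a1 and Col1a2 were not called. Npnt was highest in Per/Nr1d_KO cells (1010 and 1040), where Itga8 was lowest. No association between ligands and receptors was tested. In Per/Nr1d_KO against labelled Cry/Per_KO cells they were Col3a1 (7.20), Tgfbi (6.50) and Edil3 (-6.38).

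Of 10 tested basement membrane partners of laminin, 3, 6 and 6 were called, or 30%, 60% and 60%, beside 16.8%, 20.6% and 29.0% of all genes. In the first comparison 1 was higher and 2 lower, in the second 4 and 2, and in the last 5 and 1. As for the other lists, no excess is read from these counts. Nid1, the nidogen that joins laminin to collagen, was higher in Per/Nr1d_KO cells at a mean of 55134 normalized counts, beside 24144 in labelled Cry/Per/Nr1d_KO and 26492 in labelled Cry/Per_KO cells (log2 fold changes 1.19 and 1.06, adjusted p = 3.9e-13 and 1.3e-12). Agrn, a laminin-binding proteoglycan, was called the same way (1.60 and 2.05, adjusted p = 5.9e-14 and 2.9e-15). Nid2, the other nidogen, and Col4a5, a basement membrane collagen, were called lower in Per/Nr1d_KO than in labelled Cry/Per/Nr1d_KO cells (log2 fold changes -0.91 and -2.08, adjusted p = 4.8e-10 and 4.3e-15). Of the 12 laminin receptors outside the integrins and enzymes that glycosylate dystroglycan, 0, 2 and 4 were called by edgeR and by DESeq2, or 0.00%, 16.7% and 33.3%, near or below the share of all genes, and 9 of the 12 had an unadjusted p under 0.05 in the comparison without a call. Dag1, the dystroglycan gene, had mean normalized counts of 26253 in labelled Cry/Per_KO, 18626 in labelled Cry/Per/Nr1d_KO and 10933 in Per/Nr1d_KO cells, called between the first and the last (-1.26, adjusted p = 4.3e-13).

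Markers of the labelled cell type were mixed. Col1a1, Col1a2, Fn1, Vim, Pdgfra and Pdgfrb were high in every library, the lowest value being 4129 normalized counts of Pdgfra, while Thy1 and Lum were under 10 in all 6. The summed level of the 10 fibroblast markers was 1695989 to 1718777 in Per/Nr1d_KO, 889632 to 932348 in labelled Cry/Per/Nr1d_KO and 849247 to 855779 in labelled Cry/Per_KO libraries. This sum is mostly Fn1, Col1a1, Col1a2 and Vim, and Pdgfra, Pdgfrb and Vim went the other way, called lower in Per/Nr1d_KO than in labelled Cry/Per/Nr1d_KO cells (log2 fold changes -1.62, -1.34 and -0.87, adjusted p = 2.3e-14, 2.4e-13 and 5.7e-11). Markers of endothelium (6 genes, Tie1 at 0 in all), leukocytes (7 genes, Cd3e at 0 in all), skeletal muscle (5 genes) and Schwann cells (4 genes) summed to 49.7 to 137, 204 to 334, 29.3 to 111 and 143 to 417 over the 6 libraries. Their part in the differences above was not tested.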

How the data were processed

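RNA of the 3 lines was poly-A selected and sequenced from stranded libraries as single-end reads of 50 bases. Alignment by the authors was to mm10 with STAR, and featureCounts gave the raw counts per Entrez ID that they deposited. The strand setting of the counting is not given in the sources used here. The authors' tables of DESeq2 1.22.2 results (base mean, log2 fold change, standard error and p-values) were not used.

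Symbols were taken from RefSeq GRCm38.p6, which matched 25275 of 27179 IDs, and exon lengths and overlaps with other genes from GENCODE vM21. The main tool was edgeR 4.0.16, with DESeq2 1.42.0 as an alternative (R 4.3.3, limma 3.58.1). All 6 libraries entered a quasi-likelihood fit with TMM scaling, 3 groups and no block, over the 11934 genes whose mean normalized count was 100 or more. Normalized counts are counts scaled to the mean effective library size. Calls needed a Benjamini-Hochberg adjusted p under 0.05 over all these genes and a change above 1.75-fold, the study's limit. The standard error is the log2 fold change over the square root of F. The biological coefficient of variation was 0.0383, and each group rests on 2 libraries. Counting intervals are exact, at 95%, and floors of 3 reads, like these intervals, cover counting error only. The fit was tested on simulated data, the outcome is not given here, and no call rests on it.

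Members with a mean of at least 100 are described by library (1 is not reported here), called members with full statistics, and the 3 called adhesion genes with the largest change per comparison are named; other genes were named after their values were seen. The members and gene lists were chosen with earlier results of these data known. Each library was grouped by its genotype label. Alternatives were DESeq2 at 2 thresholds, other scaling and filters, no limit on the fold, glmTreat, the compared groups alone, a replicate block, each library left out, exchanged labels, other gene lengths and chromosome medians subtracted.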

Additional observations from a re-analysis of the deposited data

How the results depend on the processing

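All differences rest on 2 RNA preparations of each line, and genes with few reads in a line have folds that only counting intervals bound. Without the limit on the fold 21 members were called in labelled Cry/Per_KO against labelled Cry/Per/Nr1d_KO cells, and 9176, 9120 and 9825 of all genes and 64, 69 and 69 adhesion genes in the 3 comparisons in the order of the report. Without an expression filter 3808, 4576 and 5590 genes were called, and with a mean of at least 10 the first comparisons gave 3304 and 3912. DESeq2 at an adjusted p under 1e-22 called 1150 genes in the first comparison and lost 10 member calls over the 3 comparisons (Lama1, Lamb3, Itga2b, Itga8, Itgb6 and Itgb8). Leaving out each library in turn, which assumes that the lone library of its line varies like the others, gave 11 to 12, 14 to 14 and 17 to 18 members, 1994 to 2041, 2452 to 2517 and 3432 to 3510 genes, and 16 to 16, 33 to 35 and 36 to 37 adhesion genes. Without the first or the second labelled Cry/Per_KO library, the fitted Lama1 value in the first comparison was -6.18 or -9.31, and without the first or the second labelled Cry/Per/Nr1d_KO library that of Itgb6 in the second was 11.89 or 8.02. Under the alternatives other than exchanged labels, signs turned for uncalled values alone. With the chromosome median subtracted, Lamb1 and Lamb2 were at -0.023 and -0.31 in the first comparison, Itga10 and Itgav at -0.10 and 0.0438 in the second, and Lamc1 and Itga10 at -0.12 and -0.062 in the last, where Lamb2 passed the limit at 1.06. Itgb8 in the first comparison was at 0.0029 under DESeq2 (at either p threshold), 0.0048 with median-of-ratios scaling, and from -0.0722 to 0.057 with each library left out in turn, above 0 without the second labelled Cry/Per/Nr1d_KO (0.057) or labelled Cry/Per_KO (0.0358) library. Apart from the chromosome median, whose subtraction shifts these values by construction, the cause was not tested. Same-numbered libraries did not deviate together (r from -0.21 to -0.02), and the replicate block gave 11, 14 and 18 members and 2007, 2464 and 3462 genes, the added member being Itga10 at 0.81. Crossed pairing, added after seeing the data, gave 11, 14 and 17 members. Exchanged labels gave 11, 17 and 14 members, with 8 higher and 3 lower in the first comparison, where every value turns its sign. Over the 25 tested members and 3 comparisons, 1221 of 1275 values under the alternatives other than exchanged labels kept direction and call. Several of these alternatives reuse fold changes or p-values of the main fit, and DESeq2 enters at 2 thresholds with the same estimates. Part of this total was therefore fixed in advance.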
